A study of Mus musculus with 464 samples.

Results

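The genes described here encode sodium, calcium and potassium channels, taken as every gene of the expression table whose symbol begins with Kcn, with Scn and a digit, or with Cacn. They make up 0.610% of the 21973 genes measured. By symbol, 10 encode pore-forming sodium channel subunits and 4 sodium channel beta subunits. Calcium channels contributed 10 pore-forming subunits, 4 alpha2delta subunits, 4 beta subunits and 8 gamma subunits or gamma-related proteins. Among the potassium channel genes were 30 voltage-gated pores, 10 silent modifier subunits, 16 auxiliary subunits, 8 channels activated by calcium or sodium, 15 inward rectifiers, 14 tandem-pore leak channels and the regulator Kcnrg. The prefix is therefore wider than voltage-gated pores, since inward rectifiers, leak channels and several auxiliary proteins are not opened by depolarisation.

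All libraries came from 1 condition. R1 mouse embryonic stem cells, kept in medium with 15% serum replacement and 1000 U/ml LIF, were aggregated for 48 h in hanging drops into embryoid bodies, which then received retinoic acid for 4 days (0.5 mM as the labels give it). The labels of these samples name no untreated cells, second time point, culture replicate or animal, so the cells form 1 sample and no test between conditions was possible. Cells were isolated one by one on the C1 system (Fluidigm), which also made their cDNA with SMART-Seq V4 chemistry.

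Voltage-gated sodium channels carry the rising phase of the action potential, calcium channels couple depolarisation to calcium entry and transmitter release, and voltage-gated potassium channels repolarise the membrane. Leak and inwardly rectifying potassium channels set the resting potential, also in epithelia. In the developing nervous system, progenitors and young neurons already carry some of these currents, and their composition changes as neurons mature.

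Of the cells, 98.7% were kept, which had at least 2000 genes above 0 TPM (a level scaled by transcript length and by the cell's total) and at most 20% of their signal in mitochondrial genes. The other 6 were removed. Genes above 0 ranged from 2059 to 10256 per cell, with a median of 6742.5. The depth in reads is unknown from these values. The cells lie in 2 column sets, with 48.9% of the kept cells in set 1 and 51.1% in set 2. Between the sets, 55 column pairs were near copies (correlation 0.946 to 0.990, against at most 0.917 for any other pair), and are read here as 2 measurements of the same cell. Counting each pair once left the same 14, 7 and 8 channel genes that are reported below as apart between states.

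Cells were assigned to marker states by lists of 8 markers without channel genes, a marker being detected at 1 TPM or more. The progenitor state (41.7% of cells) had at least 4 of Pax6, Sox1, Sox2, Sox3, Hes5, Fabp7, Msi1 and Rfx4 and met neither other minimum. The neuron state (29.7% of cells) had at least 5 of Nefl, Nefm, Stmn2, Mapt, Elavl4, Snap25, Ina and Gap43 and fewer than 4 endoderm markers. The endoderm state (64 cells) had at least 4 of Gata4, Gata6, Sox17, Sox7, Foxa2, Dab2, Pdgfra and Cubn and neither neural minimum. A further 54 cells met the endoderm minimum together with a neural one, and 13 met none. These states are ranges of marker number. Of the neuron-state cells 67.6% also met the progenitor minimum, and 81 cells in all had the minimum number of neuron markers or 1 fewer. In short lists for other lineages, Hbb-bh1, Ptprc and Myod1 were detected in no cell. Of 4 neural crest markers, only Foxd3 passed the rule of size below as higher in the neuron state. It was in 23.5% of neuron-state and 3.14% of progenitor-state cells. Of 6 endothelium and blood markers, only Tal1 passed (10.3% against 0). Of 6 muscle markers, Myl7 was in 20.3% of endoderm-state cells and 12.04% of progenitor-state cells, and none of the others exceeded 4.71% in any of the 3 states. Nefl, a neuron marker, was in 23.4% of endoderm-state cells. A lone marker of a list does not name a lineage. Whether cells of other lineages have a part in the values below was not tested.

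Upstream sequences from RefSeq (GRCm38.p6, the same assembly as mm10) were at hand for 99 of the genes, in windows of 250 bases before an annotated start. Printed below are 4 of them: 2 genes found mainly in neuron-state cells, 1 that led in endoderm-state cells and 1 found in both neural states. They are shown as examples of each group, and because the Scn2a sequence differs in base composition from the other 3. Capitals mark the GC box (GGGCGG on either strand) and the E-box (CAGCTG). From those of Cacna1b and Scn2a, 48 and 5 bases that lie inside the annotated gene were left out. Each runs 5′ to 3′ on the gene's strand and ends at the annotated start.
Cacna1b, chr2:24763201-24763402, minus strand: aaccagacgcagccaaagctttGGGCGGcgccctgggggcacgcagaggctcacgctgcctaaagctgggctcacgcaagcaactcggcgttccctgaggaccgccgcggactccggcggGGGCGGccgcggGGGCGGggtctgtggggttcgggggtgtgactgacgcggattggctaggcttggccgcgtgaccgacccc
Scn2a, chr2:65620519-65620763, plus strand: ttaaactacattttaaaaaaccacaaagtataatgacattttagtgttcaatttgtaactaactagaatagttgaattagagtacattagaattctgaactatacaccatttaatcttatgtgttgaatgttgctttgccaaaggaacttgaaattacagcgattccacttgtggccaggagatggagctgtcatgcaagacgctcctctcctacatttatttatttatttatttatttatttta
Kcnk12, chr17:87797995-87798244, minus strand: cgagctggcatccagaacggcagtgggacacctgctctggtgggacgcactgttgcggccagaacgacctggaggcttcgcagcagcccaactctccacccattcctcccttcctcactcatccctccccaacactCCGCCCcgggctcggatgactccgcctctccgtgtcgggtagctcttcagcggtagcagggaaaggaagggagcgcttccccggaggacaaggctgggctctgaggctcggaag
Kcne1l, chrX:142306199-142306448, minus strand: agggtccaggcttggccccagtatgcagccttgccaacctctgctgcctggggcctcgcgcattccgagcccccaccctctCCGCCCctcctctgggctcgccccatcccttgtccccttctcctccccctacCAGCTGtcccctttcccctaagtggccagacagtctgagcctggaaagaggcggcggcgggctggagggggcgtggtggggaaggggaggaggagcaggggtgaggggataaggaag

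The sequence before Cacna1b was 71.8% G and C and held 3 GC boxes, whereas that before Scn2a was 30.2% G and C and held neither motif, although both genes were found mainly in neuron-state cells. Across windows the channel genes had a median GC content of 58%, against 52.4% for all 32851 windows. The E-box CAGCTG, searched on both strands and its own reverse complement, lay in 33 channel windows (24.4%) and in 13% of all windows. GC boxes lay in 42.2% against 32.7%, TATAAA in 3.70% against 12.4%, and the GATA motif AGATAA in 2.96% against 9.99%. The RE1 element of the repressor Rest (its consensus with up to 3 mismatches, both strands) was in none of the channel windows and in 0.0578% of all windows. With only 19 matches in all windows, none in the channel windows could be foreseen and says nothing on Rest and these genes. These are matches of letters in short windows and no sites of binding.

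Most channel genes were found in few cells. By number, 64 were detected in at least 10 cells, 55 in 1 to 9 cells and 15 in no cell. Detection reached 10% of all cells for 18 genes (13.4% of the channel genes, against 50.7% of all genes of the table), and 1, Kcnh2, was found in most cells. The 15 that were in no cell at 1 TPM were Cacna1f, Kcna1, Kcna4, Kcna10, Kcnc2, Kcnh5, Kcng3, Kcne2, Kcnj1, Kcnj3, Kcnj5, Kcnj15, Kcnj16, Kcnk9 and Kcnk18. An order of genes by the share of cells is an order of detection at 1 TPM and not of levels.

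The number of channel genes detected per cell differed between states. The median was 10 in neuron-state cells (2 to 25), 5 in progenitor-state cells (1 to 15) and 3 in endoderm-state cells (0 to 13). With detection counted only among the 4000 highest genes of a cell, the medians were 2, 2 and 1, so that the neuron and progenitor medians no longer differed. The middle 50% of neuron-, progenitor- and endoderm-state cells held 7 to 12, 3 to 7 and 2 to 4 channel genes at 1 TPM. These middle ranges of the neuron and endoderm states did not meet, while their full ranges overlapped. Cells with both endoderm and neural markers had a median of 8.5. Gene number moved in the same order, with medians of 7049.5 genes above 0 in the neuron state, 6624 in the progenitor state and 6019.5 in the endoderm state. Per 1000 genes above 0, the median was 1.38 channel genes in neuron-state, 0.80 in progenitor-state and 0.53 in endoderm-state cells.

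**Figure D1:**
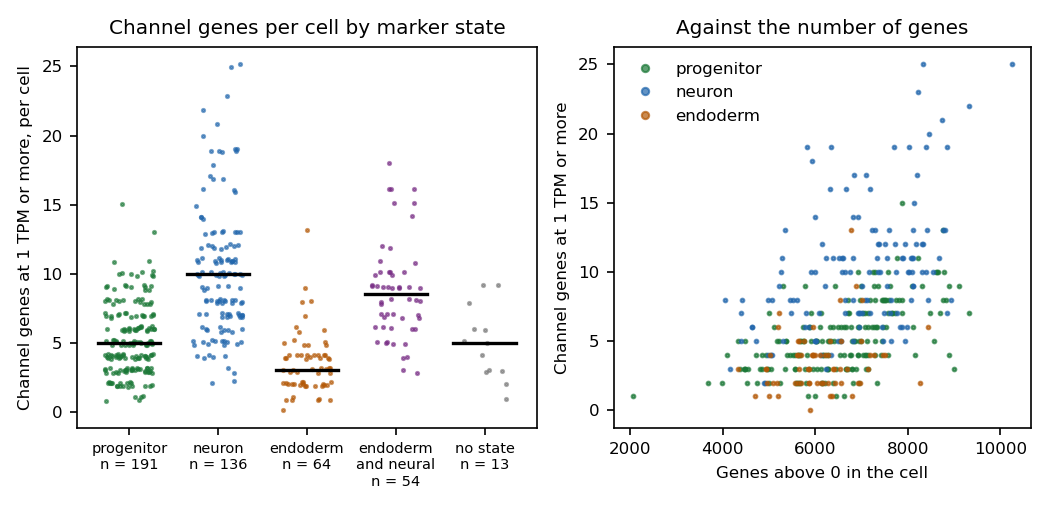
Left: channel genes at 1 TPM or more in each cell by marker state, 1 point a cell, with bars at the medians. Right: the same number against the genes above 0 in that cell. Medians were 10 in neuron-state, 5 in progenitor-state and 3 in endoderm-state cells, and the neuron-state points lie higher at the same gene number.

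A gene was called apart between 2 states by a rule of size: mean TPM at least 2-fold apart, the share of cells with 1 TPM or more at least 10 percentage points apart in the same direction, and detection in at least 10 cells of the pair. With 1 sample this is a description of these cells and carries no p-value. Between neuron and progenitor states, 14 channel genes were higher in the neuron state, where 7.35% of the 12750 genes that could be called were higher. No channel gene was lower in the neuron state, with 1.59% of genes lower. Among the 14 were Scn2a, Scn3a, Scn3b, Cacna1b, Cacna2d1, Cacna2d3, Cacnb1, Cacnb3, Kcnk10 and Kcnn1. Within single column sets 11 of them were called in both, the exceptions being Scn1a, Cacna1h and Kcnh4. All 55 near-copy pairs lie across the sets, so agreement between the sets, here and below, is partly built in. Of the channel genes 51 could be called. The 14 make up 10.4% of all channel genes, against 4.26% of all genes in the table. Between endoderm and progenitor states, 7 channel genes were higher in the endoderm state (all genes that could be called, 14.7%) and 8 were lower (20.7%), of 28 channel genes that could be called. As shares of those 28 these are 25% higher and 28.6% lower. As shares of all channel genes they are 5.22% higher and 5.97% lower, against 8.30% and 11.7% of all genes in the table. Among the lower ones were Kcnh2, Scn8a, Cacng4, Kcnmb4, Kcne1l, Kcnip3 and Kcnn1, and 7 of the 8 were called in both column sets. Among all channel genes, 81 had a larger share in the neuron than in the progenitor state and 30 a smaller one (60.4% larger, against 45.8% of all genes).

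**Figure D2:**
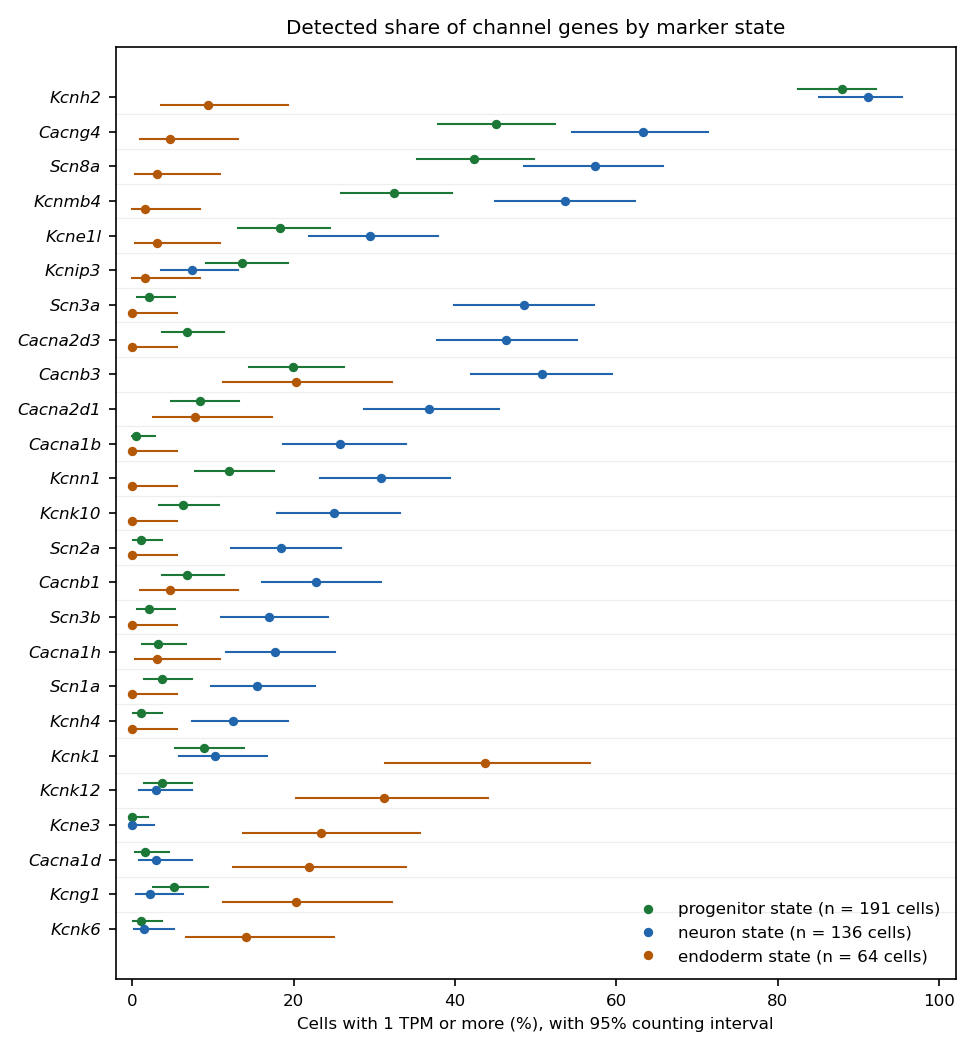
Percent of cells with 1 TPM or more in progenitor-state, neuron-state and endoderm-state cells, for channel genes that the rule of size called. They were called between the progenitor state and the neuron or endoderm state, so the differences shown chose them. A few called genes are left out. Points are shares and lines exact 95% binomial intervals. Kcnh2 is near 90% in both neural states and at 9.38% in the endoderm state, and Kcne3 is at 0 in both neural states.

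Sodium channel pores separated the neural states from the endoderm state. At least 1 of the 10 genes was detected in 82.4% of neuron-state cells, 46.6% of progenitor-state cells and 3.12% of endoderm-state cells (2 of 64). The exact 95% binomial intervals were 74.9 to 88.4%, 39.4 to 53.9% and 0.38 to 10.8%. Intervals here cover counting error only, and repeated cells make them too narrow.

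Scn8a, the pore of a sodium channel that gathers at axon initial segments and nodes, was the most widely found. It was detected in 42.4% of progenitor-state cells (mean 8.55 TPM, highest 267.6) and 57.4% of neuron-state cells (mean 10.6, highest 89). In the endoderm state it was found in 3.12% of cells, with a mean of 0.71 TPM. Its mean was 12-fold higher in the progenitor than in the endoderm state, while progenitor and neuron states lay within the 2-fold rule.

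Scn3a, a sodium channel pore typical of embryonic brain, had a different distribution. It was detected in 66 neuron-state cells (48.5%, 39.9 to 57.2%), in 4 progenitor-state cells (2.09%) and in none of 64 endoderm-state cells. With no cell found, 3 cells of the total are taken as the limit, here 4.69%, and the exact interval reaches 5.60%. Its mean was 4.97 TPM in the neuron state, where single cells reached 81.8, and 0.08 TPM in the progenitor state, where none passed 4.44. In neuron-state cells 42 held Scn8a with Scn3a, 36 Scn8a without Scn3a, 24 Scn3a without Scn8a and 34 neither. In progenitor-state cells the numbers with both, Scn8a alone and Scn3a alone were 2, 79 and 2. With Scn3a in only 4 of these cells, most cells with Scn8a had to lack it. An association of the 2 genes was not tested.

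Scn3a lies in a row of 5 sodium channel pores on chromosome 2 (65457118 to 66784910 in GRCm38.p6), with Scn2a, Scn1a, Scn9a and Scn7a. At least 1 of the 5 was found in 60.3% of neuron-state cells (51.6 to 68.6%), 6.81% of progenitor-state cells and no endoderm-state cell. Scn2a, a pore of unmyelinated axons, was in 18.4% of neuron-state cells (mean 2.87 TPM, highest 57.1) and in 2 progenitor-state cells. Scn1a, which serves inhibitory neurons among others, was in 15.4% of neuron-state cells (mean 2.57) and 3.66% of progenitor-state cells (mean 0.61). Its neuron-to-progenitor ratio was 12.1 in one column set and 1.68 in the other, so the call for Scn1a held in one set only. Scn9a, known from pain-sensing neurons, was in 8.82% of neuron-state cells and in no progenitor-state cell (limit 1.57%, exact interval to 1.91%), short of the 10 points the rule asks. Scn7a was in 0.74% of neuron-state cells. These genes are close in sequence, and how the authors' estimates divided reads between them was not checked.

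The other sodium channel pores were rare. Scn10a, a pore of sensory neurons, was in 2 progenitor-state cells and Scn11a in 1, and neither was found in a neuron-state or endoderm-state cell. Scn4a, the skeletal muscle pore, was in 0.74% of neuron-state cells.

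Sodium channel beta subunits modulate gating and cell adhesion. Scn3b was in 16.9% of neuron-state cells (mean 3.97 TPM), 2.09% of progenitor-state cells (mean 0.28) and no endoderm-state cell. Scn2b stood at 9.56% of neuron-state and 2.09% of progenitor-state cells.

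Calcium channel pores were found in every state, but by different genes. At least 1 of 10 was detected in 61.03% of neuron-state, 26.2% of progenitor-state and 31.2% of endoderm-state cells. Cacna1b, the N-type pore of presynaptic terminals, was in 35 neuron-state cells (25.7%, 18.6 to 33.9%; mean 1.69 TPM, highest 31.8), in 1 progenitor-state cell and in no endoderm-state cell. Cacna1h, a T-type pore that opens near rest, was in 17.6% of neuron-state cells (mean 2.60) and 3.14% of progenitor-state cells (mean 0.50). The Cacna1h call held in one of the column sets, the ratio being 3.34 in the other with shares of 14.9% and 5.62%.

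Cacna1d, an L-type pore of endocrine and sinoatrial cells, went the other way. It was in 14 of 64 endoderm-state cells (21.9%, 12.5 to 33.97%; mean 2.90 TPM), 1.57% of progenitor-state cells (mean 0.42) and 2.94% of neuron-state cells (mean 0.08). Cacna1d overlaps Dcp1a in the annotation, a gene at mean levels of 7.73 TPM in progenitor-state, 11.5 in neuron-state and 10.9 in endoderm-state cells. The library as described does not keep strand, so part of these reads could not be told apart.

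Cacna1a, the P/Q-type pore, was the calcium channel pore found in most cells over all states (17.2%). It was in 16.2% of progenitor-state (mean 1.19 TPM), 22.1% of neuron-state (mean 2.56) and 7.81% of endoderm-state cells (mean 0.17). The intervals of the progenitor and neuron shares, 11.3 to 22.2% and 15.4 to 29.97%, overlapped. Cacna1g, another T-type pore, was in 11.03% of neuron-state and 3.66% of progenitor-state cells, with 17.7% of neuron-state cells in one column set and 5.41% in the other. Cacna1c was in 2.62% of progenitor-state and 2.21% of neuron-state cells. Cacna1e was in 3.68% of neuron-state cells, Cacna1i in 0.74%, and Cacna1s in 1.56% of endoderm-state cells.

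Auxiliary calcium channel subunits made up 4 of the 14 neuron-higher genes. Cacna2d3, an alpha2delta subunit that aids traffic of pores to synapses, was in 63 neuron-state cells (46.3%), with a mean of 17.7 TPM and a highest cell of 140.7. It was in 6.81% of progenitor-state cells, at a mean of 0.86 TPM, and in no endoderm-state cell. Its mean was 20.6-fold higher in the neuron than in the progenitor state. Cacna2d1, the related alpha2delta subunit that binds gabapentin, was in 36.8% of neuron-state cells (mean 6.99) and 8.38% of progenitor-state cells (mean 0.96). Cacnb3, a cytoplasmic beta subunit, was in 50.7% of neuron-state cells (mean 8.49) against 19.9% of progenitor-state (mean 2.30) and 20.3% of endoderm-state cells (mean 2.61). Cacnb1 was in 22.8% of neuron-state and 6.81% of progenitor-state cells, and overlaps Rpl19, whose mean level was 1331 TPM or more in each of the 3 states. Reads of Rpl19 could enter its value.

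Cacng4, a protein that escorts glutamate receptors and is related to calcium channel gamma subunits, was found widely in both neural states. It was in 45.03% of progenitor-state cells (mean 7.64 TPM, highest 85.1), 63.2% of neuron-state cells (mean 13.02, highest 120.7) and 4.69% of endoderm-state cells (mean 1.07).

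**Figure D3:**
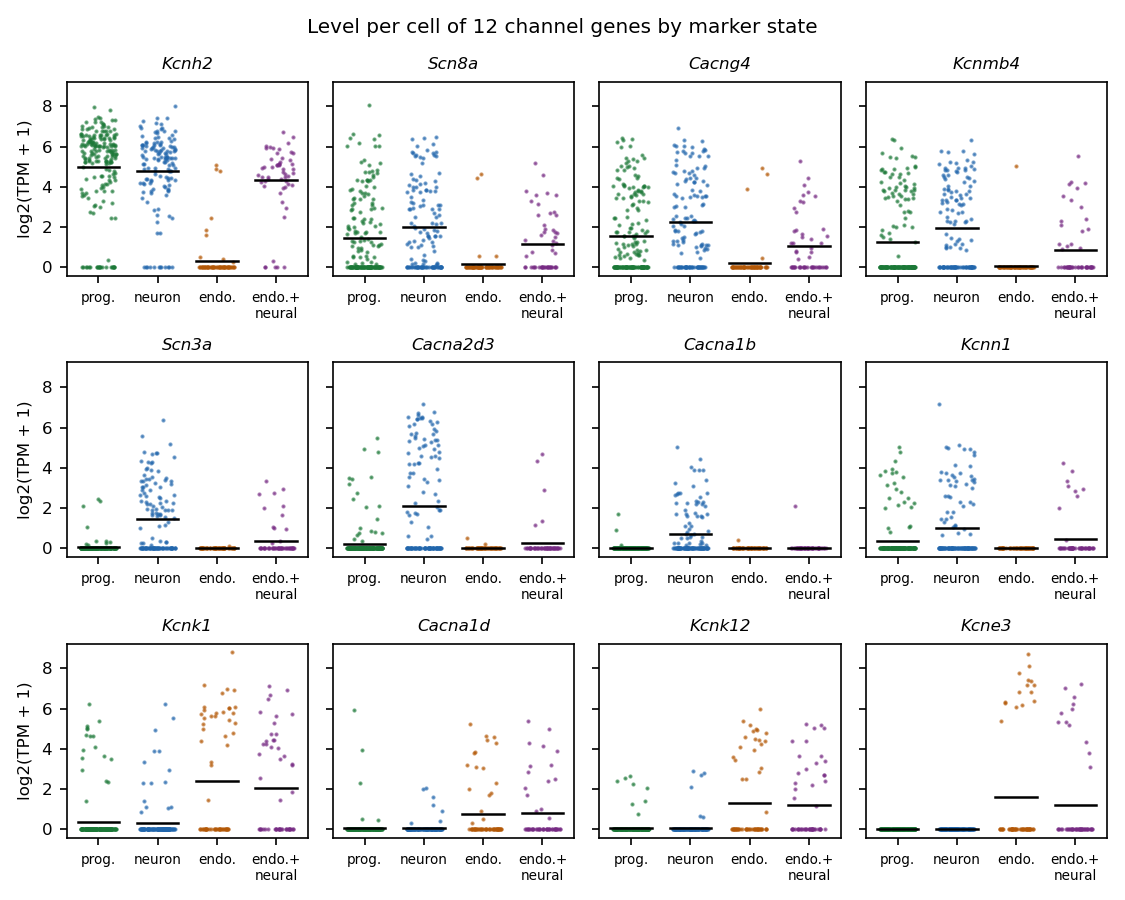
log2(TPM + 1) of 12 channel genes in each cell of 4 marker states, with black bars at the mean. Cells at 0 lie on the axis. Kcnh2 is spread over high values in both neural states and in the cells with endoderm and neural markers, while Kcne3 has high values only in cells with endoderm markers.

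Among potassium channels, Kcnh2, the pore of the rapid delayed rectifier known from cardiac repolarisation, stood out. It was detected in 87.96% of progenitor-state cells (82.5 to 92.2%), with a median of 49.9 TPM and a highest cell of 246.2. In neuron-state cells it was in 91.2% (85.1 to 95.4%), with a median of 40.97 and a highest cell of 256.2. In endoderm-state cells it was in 6 of 64 (9.38%, 3.52 to 19.3%), with a median of 0 and a highest cell of 33.5. Mean levels were 56.4, 46.8 and 1.55 TPM, a 36.5-fold ratio between the progenitor and endoderm states. Distributions in the progenitor and neuron states covered nearly the same range.

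Other voltage-gated potassium channels were found in fewer cells. Kcnh4, of the same family as Kcnh2, was in 12.5% of neuron-state cells (mean 0.68) and 2 progenitor-state cells. Kcnh8 had 16.9% in the neuron state and 6.81% in the progenitor state, with means of 0.93 and 0.51 TPM, under the 2-fold limit. Kcnc1, a channel of fast-firing neurons, was in 8.09% of neuron-state cells. None of the Kcna genes, which act in axons, exceeded 2.40% of all cells.

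Channels activated by calcium and their partners added to the neural side. Kcnn1, a small-conductance channel of the afterhyperpolarisation, was in 30.9% of neuron-state cells (mean 4.32 TPM), 12.04% of progenitor-state cells (mean 1.11) and no endoderm-state cell. Kcnmb4, the neuronal beta subunit of large-conductance channels, was in 53.7% of neuron-state (mean 9.18), 32.5% of progenitor-state (mean 6.17) and 1.56% of endoderm-state cells. A single cell with no marker state held 1974 TPM of Kcnmb4. Kcne1l, a small auxiliary subunit, was in 29.4% of neuron-state, 18.3% of progenitor-state and 3.12% of endoderm-state cells, with means of 7.62, 5.43 and 0.66 TPM. Kcnip3, a calcium-binding partner of A-type channels, was in 13.6% of progenitor-state, 7.35% of neuron-state and 1.56% of endoderm-state cells.

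Tandem-pore leak channels divided between states. Kcnk10 was in 25% of neuron-state cells (mean 4.86 TPM), 6.28% of progenitor-state cells (mean 0.64) and no endoderm-state cell. Kcnk1 was in 28 of 64 endoderm-state cells (43.8%, 31.4 to 56.7%), with a mean of 29.4 TPM and a highest cell of 440.4. In progenitor-state cells Kcnk1 was in 8.90% (mean 1.90), and in neuron-state cells in 10.3% (mean 1.54). Kcnk12 was in 31.2% of endoderm-state (mean 6.71), 3.66% of progenitor-state (mean 0.13) and 2.94% of neuron-state cells (mean 0.16). Kcnk6 was in 14.1% of endoderm-state and 1.05% of progenitor-state cells. Kcnk5, a leak channel opened by alkaline pH, was in 13.6%, 5.88% and 12.5% of progenitor-, neuron- and endoderm-state cells, and in 50% of the cells with endoderm and neural markers. Any leak channel gene was detected in 78.1% of endoderm-state cells, 50% of neuron-state cells and 35.6% of progenitor-state cells.

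Kcne3, an auxiliary subunit that holds Kcnq1 channels open in epithelia, was detected in 27 cells, all of which met the endoderm minimum. It was in 15 of 64 endoderm-state cells (23.4%, 13.8 to 35.7%), where detected cells had a median of 113.4 TPM and the highest reached 422.3. It was listed at 0 in every progenitor-state and every neuron-state cell, where the limits for no cell found are 1.57% and 2.21% and the exact intervals reach 1.91% and 2.68%. Kcng1, a silent subunit that modifies other potassium channels, was in 20.3% of endoderm-state, 5.24% of progenitor-state and 2.21% of neuron-state cells. Within single column sets 4 of the 7 endoderm-higher genes were called in each, among them Kcng1, Kcnk1 and Kcnk12. Kcne3, Cacna1d and Kcnk6 missed there, Kcne3 because it was found in fewer than 10 cells of the states compared in either set.

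The inward rectifiers were nearly absent from the detections. Kcnj10, the highest of the 15, was in 3.49% of all cells, 5 were in none, and no other reached 10 cells.

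No single neuron-state cell held the whole neuron-higher group. Of its 14 genes, neuron-state cells held a median of 3 (0 to 12), progenitor-state cells 1 (0 to 4) and endoderm-state cells 0 (0 to 3). At least 3 were detected in 91 neuron-state cells (66.9%), 12 progenitor-state cells and 1 endoderm-state cell. These counts describe genes chosen by the same contrast. A sodium, a calcium and a voltage-gated potassium channel pore were detected together in 51.5% of neuron-state cells (42.8 to 60.1%), 11.5% of progenitor-state cells (7.36 to 16.9%) and 1.56% of endoderm-state cells. In column sets 1 and 2 the neuron-state share was 61.3% and 43.2%, and the progenitor-state share 15.7% and 6.74%. Whether these kinds of pore were found together more often than their single shares give was not tested. Of neuron-state cells 44.1% held 2 or more sodium channel pores and 20.6% held 2 or more calcium channel pores.

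The channel genes differed in how they followed neuron marker number. Among cells with fewer than 4 endoderm markers, the median number of channel genes was 4 in the 96 cells with 1 or 2 neuron markers, 6 in the 99 with 3 or 4, 7 in the 46 with 5 or 6 and 11 in the 90 with 7 or 8. The 9 cells with none are too few to read. Median genes above 0 in these groups were 6283, 6740, 6816.5 and 7179.5. Kcnh2 was already in 84.4% of cells with 1 or 2 markers and reached 92.2% at 7 or 8. Scn8a went from 40.6% to 60% and Kcnmb4 from 25% to 54.4%.

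Scn3a, Cacna1b, Cacna2d3 and Cacna2d1 started from lower shares and, like Kcnh2, Scn8a and Kcnmb4, were highest at 7 or 8 markers. Scn3a was in 2.08%, 3.03%, 8.70% and 68.9% of cells from 1 or 2 to 7 or 8 markers. Cacna1b had 0%, 1.01%, 6.52% and 35.6%. Cacna2d3 had 6.25%, 8.08%, 26.1% and 56.7%, and Cacna2d1 had 7.29%, 9.09%, 13.04% and 48.9%. Cacng4 stood near 40% up to 5 or 6 markers (45.8%, 41.4% and 36.96%) and at 76.7% with 7 or 8. Kcne1l was highest at 5 or 6 markers (34.8%) and was at 26.7% with 7 or 8. Cells are ordered here by marker number and by no measured time.

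**Figure D4:**
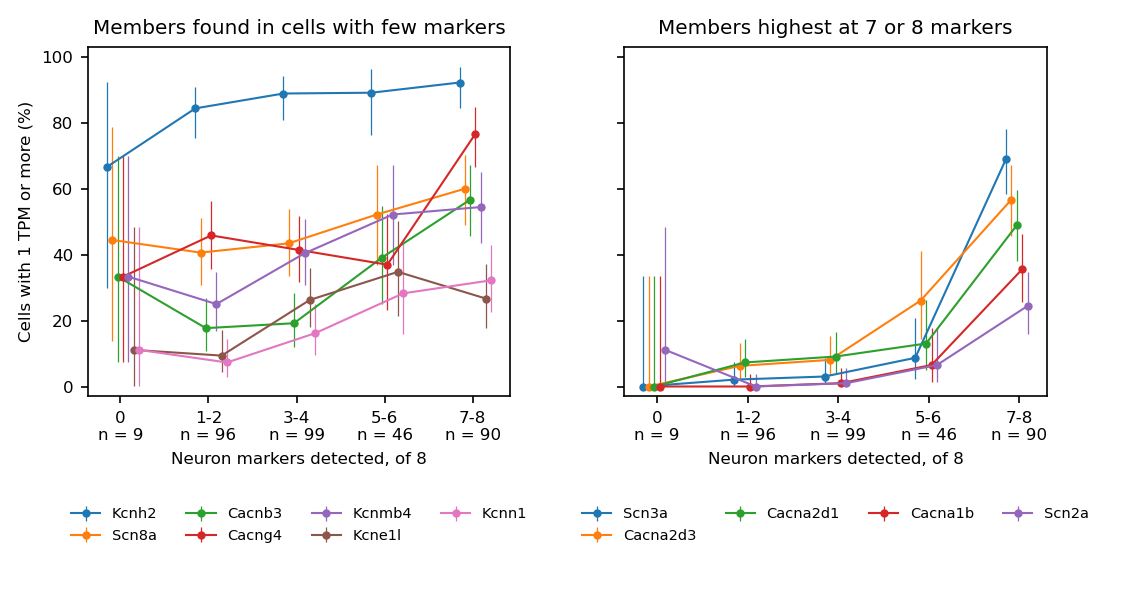
Percent of cells with 1 TPM or more against the number of neuron markers detected of 8, in cells with fewer than 4 endoderm markers, with exact 95% binomial intervals. All genes shown but Kcne1l are highest at 7 or 8 markers. With 1 or 2 markers, genes in the left panel are in 7.29% (Kcnn1) to 84.4% (Kcnh2) of cells. Those in the right panel are in 0% (Cacna1b) to 7.29% (Cacna2d1) there. Scn3a reaches 68.9% at 7 or 8 markers, and Cacna2d3 is already at 26.1% with 5 or 6.

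Cells with both endoderm and neural markers held channel genes of both sides. At least 1 of Kcnh2, Cacng4, Scn8a and Kcnmb4 was detected together with at least 1 of Kcnk1, Kcnk12 and Kcne3 in 31 of 54 cells (57.4%, 43.2 to 70.8%). The same was true of 11.5% of progenitor-state, 13.2% of neuron-state and 10.9% of endoderm-state cells. Counting near-copy columns once gave 57.1% for the cells with both kinds of marker. These genes were among those called apart between endoderm and progenitor states. The low shares in those states therefore follow in part from the choice of genes. In the cells with both kinds of marker, any gene of the first group was found in 94.4% and any of the second in 61.1%. Kcnh2 was in 88.9% of them at a mean of 29.9 TPM, and Kcne3 in 22.2% at 13.3 TPM. These cells had a median of 8013 genes above 0, the highest of the states. No doublets were removed, and their part in this co-detection was not tested. Nor was co-detection beyond what the shares of the gene groups give.

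The near-copy columns showed how far 2 alike columns agreed on these genes. The pairs were chosen by their high correlation, so the shares below can overstate how repeatable detection is. Which steps of preparation the columns of a pair share is not known here. Over 55 pairs, 82.4% of the detections of a channel gene were made in both columns and 63 detections in 1 only. Of the detections in column set 1, 92.2% were found again in set 2, and of those in set 2, 88.6% in set 1. For values of 1 to 5 TPM these shares were 77.98% and 70.1%, for 5 to 20 TPM 99.1% and 95.2%, and above that 100% both ways. Where both columns had the gene, the median absolute difference was 0.49 on the log2 scale. Kcnh2 was in both columns of 43 pairs and in 1 column of 1 pair, and Cacnb3 in 16 and 4. The pairs were in the same marker state in 48 of 55 cases.

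**Figure D5:**
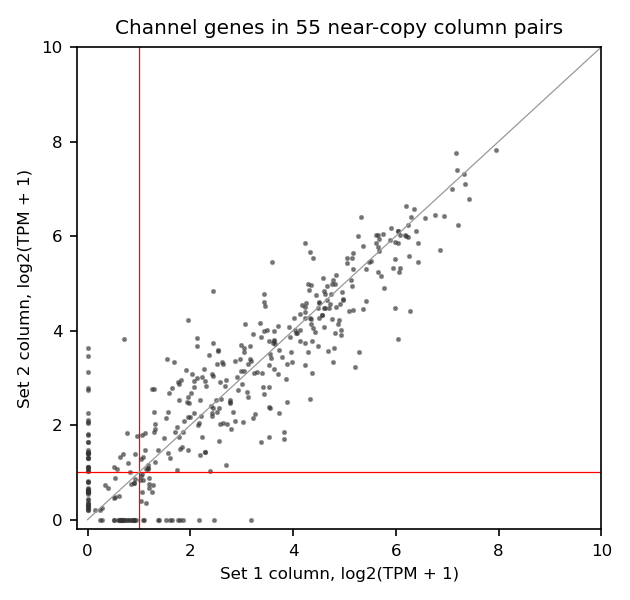
Levels of the channel genes in the 55 near-copy column pairs, log2(TPM + 1) in each column set, 1 point a gene and pair, with red lines at 1 TPM. Most detections are shared by both columns, single points above 5 TPM lie far from the diagonal, and 63 detections were made in 1 column only.

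Genes that act with these channels were read from short lists. Of 8 partners of channels at the axon initial segment or in neuronal membranes, 3 were higher in the neuron than in the progenitor state. Ank2 and Ank3, the ankyrins that anchor sodium channels, had means of 45.8 against 18.5 TPM and 35.7 against 9.75 TPM, and Fgf13, which binds sodium channel tails, 37.2 against 4.48 TPM. The sodium pump beta subunit Atp1b1 was also higher (10.4 against 4.13 TPM). In the group of Rest and 3 cofactors, Rest, the repressor of neuronal genes including channels, was lower (36.8% against 61.8% of cells; 2.21 against 5.02 TPM) and no other member passed.

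In endoderm-state cells Atp1b1 had a mean of 158.5 TPM against 4.13 in the progenitor state. Ank2, Fgf12 and Fgf13 were lower there. Rest was in 59.4% of endoderm-state cells, near its share in the progenitor state. Orai1, the pore of store-operated calcium entry, had a mean of 20.6 TPM in the endoderm state against 5.99 in the progenitor state.

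The calls depended on how deep into each cell detection reached. If a gene counted as detected only among the 4000 highest genes of a cell, 1 of the 14 neuron-higher genes remained, Cacna2d3, with 4 of the 7 endoderm-higher and 2 of the 8 endoderm-lower genes (Kcnh2 and Scn8a). Among cells from the middle 50% of gene number, 16 genes were higher in the neuron state, 13 of them among the 14, with 6 higher and 8 lower in the endoderm state.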

How the data were processed

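Single-cell TPM values were deposited by the authors as 1 table of 21973 genes and 464 columns. STAR, RSEM and mm10 are named per the submitters' processing notes, with no versions. Column names do not match the sample labels, so all cells form 1 group. No column was left unused, and 6 cells failed the limits on genes and mitochondrial share, which left 458 (403 distinct): 191 in the progenitor, 136 in the neuron and 64 in the endoderm state, 54 with endoderm and neural markers and 13 with none. The channel genes number 134, with 135 upstream windows. TPM columns summed to 54.2 to 95.1% of 1000000.

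Shares at 1 TPM or more, with Clopper-Pearson 95% intervals, and mean TPM were computed in Python 3.11.15 (numpy 2.4.6, pandas 2.3.3, scipy 1.17.1). Named were all Scn pores and Cacna1 genes, the 12 genes found in most cells and the genes passing the rule, others being named as extremes or absences of their families after their values were seen. The channel genes and all lists were chosen with earlier results of these data known. Gene positions and upstream windows came from RefSeq tables of GRCm38.p6. Alternatives were detection above 0, at 5 TPM or by rank, other marker minimums and fold limits, single column sets, distinct cells and gene number. A few genes are not reported here.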

Additional observations from a re-analysis of the deposited data

How the results depend on the processing

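With any value above 0 counted as detection, the median number of channel genes was 6 in progenitor-state and 11 in neuron-state cells. At 5 TPM or more these medians were 3 and 6, and 5 channel genes were lower in the endoderm than in the progenitor state. Among the 4000 highest genes of a cell, 1 channel gene was higher in the neuron state, 4 were higher and 2 lower in the endoderm state, and the medians were 2, 2 and 1 in progenitor-, neuron- and endoderm-state cells. Column set 1 gave 4 endoderm-higher genes, and column set 2 also gave 4. Ranking keeps fewer detections by construction, and the cause of the other shifts was not tested. The remaining alternatives kept these counts within 1.5 times, and the count of channel genes lower in the neuron state was 0 in each. Of the shares of the named genes, 40 left their interval at 5 TPM, 16 and 8 in the column sets and 1 with distinct cells; none changed the direction of a call. Detection at 1 TPM limits what can be said of low channel genes, since 77.98% of set 1 values and 70.1% of set 2 values from 1 to 5 TPM were found again in the near-copy column. No paired analysis was possible because all cells belong to 1 group.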
